A study of Mus musculus with 26 samples.

Results

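The genes described here are 36 genes of the endoplasmic reticulum (ER) machinery for folding and secreting proteins, followed across genotype and circadian time in mouse liver. They were picked by name, as the rows of each RNA-seq table whose symbol is on the list, with the best expressed transcript standing for each symbol. All 36 were found among 22322 symbols, and all 36 passed the filter on low values in both experiments. By role they are 11 chaperones and co-chaperones, 3 protein disulfide isomerases, 5 genes of ER-associated degradation, 3 stress sensors, 3 transcription factors, 2 targets of the factors ATF4 and CHOP, and 9 genes of the translocon.

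The livers came from 8-week-old mice kept on a cycle of light and dark with free access to food and then in constant darkness for 2 days. They were taken at CT0, the hour at which the lights had come on, or at CT12. In the Bmal1 experiment, mice with a liver-specific knockout of Bmal1 (gene symbol Arntl), whose product activates the clock genes, were compared with wild-type C57BL/6 controls, with 3 livers in each of 4 groups. In the Nr1d1 experiment, mice with the label Nr1d1 knockout (the gene of REV-ERBα, a repressor in the clock) were compared with wild-type C57BL/6 controls, with 2 livers in each of 4 groups. No source used here gives the Cre driver of the Bmal1 deletion or the exons deleted in either gene. The comparisons ask how each genotype and the time of day change the liver transcriptome.

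Proteins bound for secretion enter the ER through the SEC61 channel and are folded there by chaperones, by lectins that read sugars on the chain, and by enzymes that form disulfide bonds. When unfolded proteins accumulate, the sensors IRE1 (Ern1), PERK (Eif2ak3) and ATF6 start the unfolded protein response, in which the factors XBP1, ATF4, CHOP (Ddit3) and cleaved ATF6 induce chaperones and degradation genes. Hepatocytes secrete most plasma proteins, and the response in liver is known to move with feeding and the daily cycle.

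A promoter element is shared by some of these genes. The ER stress response element (ERSE) is CCAAT and CCACG with 9 bases of any kind between them. It is bound by NF-Y together with ATF6 or XBP1, and it was searched on both strands in the 250 bases before each start site of the RefSeq promoter table (GRCm38.p6). Of the 36 genes, 31 had a promoter in that table, and Hyou1, Manf, Atf6, Sec61a1 and Ssr2 had none. The element was found in 8 of the 31 (Hspa5, Hsp90b1, Calr, Canx, Dnajc3, Creld2, Pdia6 and Syvn1), against 0.113% of all 32851 promoter windows. A related element, ERSE-II (ATTGG and CCACG with 1 base between them), was found in 1 of the 31, Herpud1, against 0.0304% of all windows. The stretches below belong to genes that the results turn on. They are written in the direction of the gene, with the element in capitals. It reads as its reverse complement in Calr and Creld2.
Hspa5, chr2:34772005-34772063, plus strand: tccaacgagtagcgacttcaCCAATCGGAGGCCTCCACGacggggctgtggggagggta
Calr, chr8:84847055-84847113, minus strand: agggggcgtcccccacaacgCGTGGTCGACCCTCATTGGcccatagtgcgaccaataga
Creld2, chr15:88819500-88819558, plus strand: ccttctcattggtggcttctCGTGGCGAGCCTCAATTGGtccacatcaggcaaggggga
Dnajc3, chr14:118937807-118937865, plus strand: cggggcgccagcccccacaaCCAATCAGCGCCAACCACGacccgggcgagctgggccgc
Pdia6, chr12:17266471-17266529, plus strand: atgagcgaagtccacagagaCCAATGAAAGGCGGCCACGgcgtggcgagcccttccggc
Syvn1, chr19:6046512-6046570, plus strand: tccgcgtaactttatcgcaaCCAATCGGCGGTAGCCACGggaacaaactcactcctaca
Herpud1, chr8:94386357-94386407, plus strand: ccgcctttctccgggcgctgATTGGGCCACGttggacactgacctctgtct

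In Hspa5 the element covered bases 65 to 47 before the start, and in Syvn1 bases 44 to 26. Hsp90b1 held a pair of copies. The letters CCACG, which are part of both elements, was in 19 of the 31 promoters and in 28.3% of all windows. The E-box CACGTG, the site of BMAL1 and its partner CLOCK, was in 4 of the 31 (Calr, Dnajb9, Sec62 and Ssr1), against 6.02% of all windows. The letters TAGGTCA, part of the site that REV-ERBα binds, were in none of the 31 windows and in 2.23% of all windows. The UPRE letters TGACGTGG (0.563% of all windows), the amino acid response letters TGATGNAAT (0.816%) and the CRE letters TGACGTCA (1.55%) were in none of the 31 either. A match is a description of the letters and not of binding.

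Levels are given in the deposited RPKM, a read count divided by transcript length and by library depth. RPKM summed over gene transcripts to 432657 to 479396 in the Bmal1 libraries. In the Nr1d1 experiment the sums were 588418 to 875424 in replicate 1 and 2099302 to 2211054 in replicate 2, the replicate described as paired-end, so those libraries were compared within a replicate. Arntl was at 15.7 to 16.3 RPKM in control livers and 5.73 to 7.45 in Bmal1 knockout livers at CT0, and at 0.680 to 1.26 and 3.59 to 4.37 at CT12. The Nr1d1 transcript was higher in the library labelled Nr1d1 knockout than in its control in 3 of 4 pairs: in replicate 1 it was at 0.374 (control) and 6.10 (knockout) at CT0 and at 3.45 and 11.1 at CT12, and in replicate 2 at 21.97 and 32.9, and at 33.4 and 28.4. Those levels go against the label, or count a transcript that the deletion leaves, and which of these holds was not tested. Arntl, which REV-ERBα represses, was at 8.00 and 19.3 RPKM at CT12 in the libraries labelled Nr1d1 knockout and at 0.597 and 1.30 in their controls. Markers of hepatocytes were detected in every library, with summed levels of 29711 RPKM or more.

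RPKM is per length, so levels can be set side by side. Over the 12 Bmal1 libraries the chaperones Hsp90b1 (GRP94; mean 314.5 RPKM), Hspa5 (BiP, the main ER chaperone; 296.0) and Calr (calreticulin, a lectin chaperone; 285.9) had the highest levels of the 36. The 3 disulfide isomerases lay at 93.4 to 111 RPKM and the translocon genes had a median of 60.7, with a range of 11.5 to 121. The 3 sensors were low, at 4.69 (Eif2ak3) to 13.4 (Atf6). Trib3 (0.738) and Chac1 (1.27), both targets of ATF4 and CHOP, were close to the filter. The reads behind these values could be recovered, up to a factor common to the libraries, for 32 of the 36 genes, and they were 6 to 66 for Trib3, 19 to 57 for Ddit3, 21 to 68 for Chac1 and 993 to 8133 for Herpud1, so the first 3 carry the largest counting error.

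The genes also differed in how much they varied. The ratio of the highest to the lowest of the 12 libraries was 8.62 for Trib3, 7.07 for Creld2, 5.99 for Herpud1 and 5.15 for Sdf2l1. It was 1.19 for Canx (calnexin), 1.21 for Sec62 and 1.27 for Sec63.

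One library stood apart and touches several results below. In control CT0 replicate 1 of the Bmal1 experiment, 11 of the 36 genes were more than 1.5 times the higher of the other 2 control CT0 livers, against 1.57% of the 11439 genes tested. In the other 11 Bmal1 libraries, measured the same way within each group, 0 or 1 of the 36 were, against 0.638% to 3.39% of all genes. The 11 were 8 of the 11 chaperones and co-chaperones (Hspa5, Hsp90b1, Hyou1, Sdf2l1, Dnajb9, Dnajb11, Creld2 and Manf), the degradation genes Syvn1 (the ubiquitin ligase HRD1) and Sel1l (its partner), and Chac1.

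Creld2, an ER stress-inducible folding factor, ranked first of all 11439 genes by this gap, with 75.2 RPKM in replicate 1 against 13.3 and 10.6 in replicates 2 and 3. Manf, a secreted ER stress protein, ranked 11 with 205 against 73.6 and 58.0. Hspa5 ranked 12 with 605 against 230.4 and 208, and Hyou1 (GRP170, a large chaperone of the ER) ranked 14 with 147 against 60.1 and 58.4. The group mean of Hspa5 at control CT0 is therefore set by 1 liver, and the other 11 libraries lay between 208 and 302 RPKM.

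The excess differed by role. Its median, as the ratio of replicate 1 to the mean of replicates 2 and 3, was 2.11 for the chaperones (1.02 for Canx to 6.28 for Creld2), 1.49 for degradation, 1.27 for the isomerases and 1.22 for the translocon genes (0.931 to 1.51). None of the 9 translocon genes, 3 isomerases, 3 sensors or 3 transcription factors passed 1.5 times the higher other liver. Trib3 went the other way, at 0.549 RPKM against 1.45 and 1.93. Of the 8 genes with an ERSE, 4 (Hspa5, Hsp90b1, Creld2 and Syvn1) were among the 11, and Calr, Canx, Dnajc3 and Pdia6 were not. Sdf2l1, Dnajb9, Dnajb11, Sel1l and Chac1, also among the 11, were searched and had no ERSE. Hyou1 and Manf, the others of the 11, had no promoter to search. Beyond the 36, 9 of 113 other secretory pathway genes tested passed the same mark, among them the redox enzyme Ero1lb and the coat subunits Sec23b and Sec24d. Neutrophil markers were also higher in this liver, with a sum over 8 genes of 116 RPKM against 49.3 and 32.6, and the acute phase genes Orm2 (208 against 54.4 and 47.8) and Saa2 (198 against 28.8 and 75.4) were too. The part of these in the result was not tested.

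**Figure D1:**
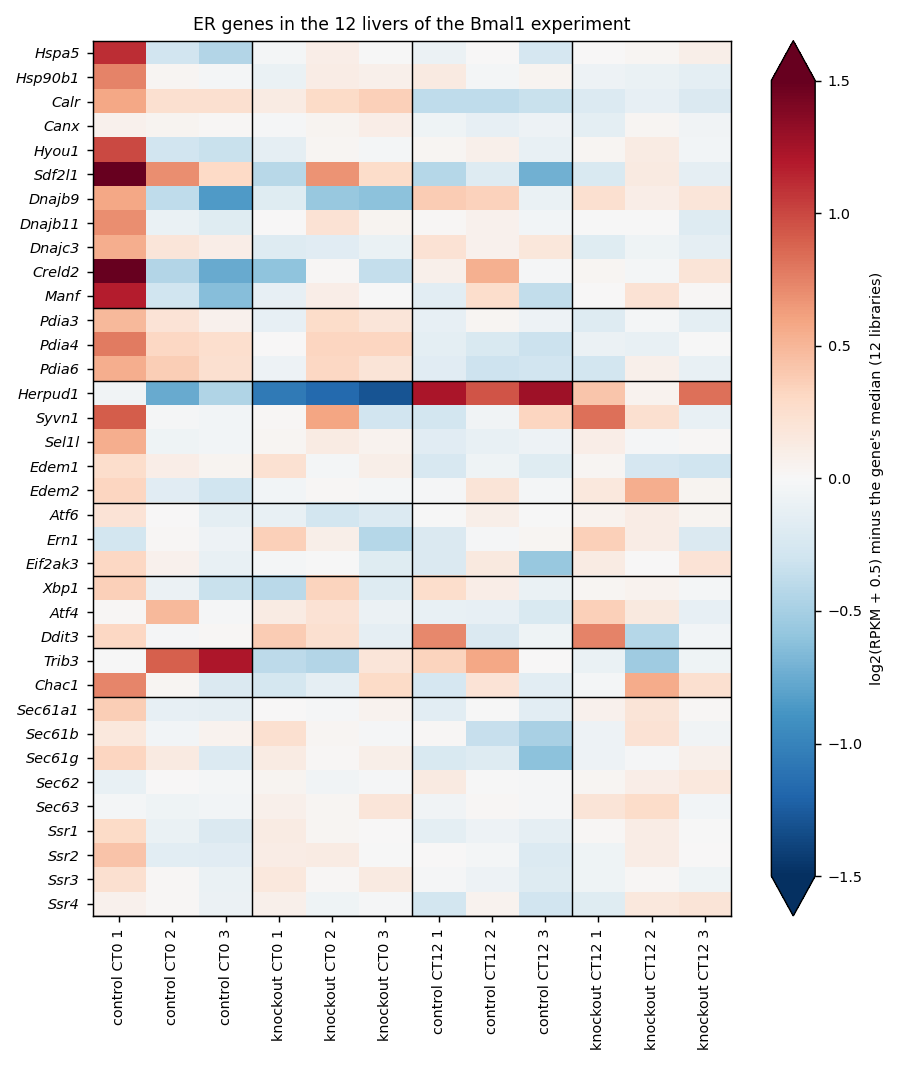
Each gene in each of the 12 Bmal1 libraries, as log2(RPKM + 0.5) minus the gene's median over the 12; red is higher and blue lower, lines separate roles (chaperones, isomerases, degradation, sensors, transcription factors, ATF4 and CHOP targets, translocon) and groups. The column of control CT0 replicate 1 is red for most chaperones, and Herpud1 is blue at CT0 in knockout livers and red at CT12.

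**Figure D2:**
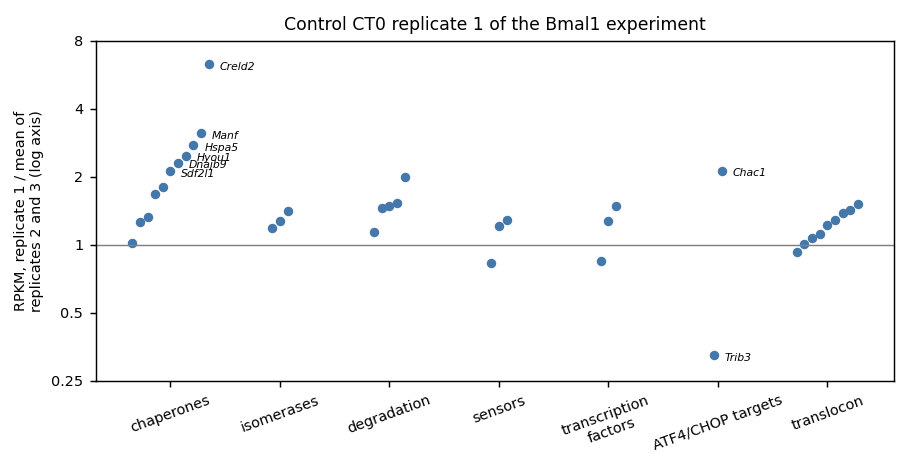
Ratio of RPKM in control CT0 replicate 1 to the mean of control CT0 replicates 2 and 3 (log axis), 1 point per gene, by role; names are given above 2 and below 0.5. Creld2 is at 6.28 and the translocon genes lie between 0.931 and 1.51.

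By time of day, 5 of the 36 genes were called in control livers (Bmal1 experiment, limma on log2(RPKM + 0.5), Benjamini-Hochberg adjusted p under 0.05). That share is near the 10.8% of the 11439 genes tested. Herpud1 rose from CT0 to CT12 and the lectin chaperone Calr, the isomerases Pdia4 and Pdia6 and the co-chaperone Sdf2l1 fell. By direction, 1 gene was higher at CT12 (background 3.4%, or 5.85% with trimmed-mean scaling) and 4 were lower (7.43%, or 5.17%). The median log2 difference was -0.16 over the 36 genes and -0.08 over all genes.

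Herpud1 encodes an ER membrane protein that recruits the degradation complex and is induced by ER stress. It was at 110.0, 67.9 and 83.4 RPKM in the 3 control livers at CT0 and at 269, 222 and 277 at CT12, with no overlap. The log2 difference was 1.57 ± 0.20 (SE; limma adjusted p = 0.000435). In Bmal1 knockout livers it was at 54.8, 50.9 and 46.2 at CT0 and at 153, 119 and 204 at CT12. There too the times did not overlap, and the difference was 1.61 ± 0.20 (limma adjusted p = 0.00346). The difference between these changes, the interaction of genotype and time, was 0.04 ± 0.28 (limma adjusted p = 0.976).

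Calr was at 412, 326 and 325 RPKM in control livers at CT0 and at 212, 212 and 219 at CT12, a log2 difference of -0.71 ± 0.10 (limma adjusted p = 0.00101). Pdia4 was at 175, 126 and 122 at CT0 and at 91.6, 87.0 and 81.1 at CT12 (-0.68 ± 0.13, limma adjusted p = 0.00758). Pdia6 was at 139.6, 123 and 113 at CT0 and at 84.7, 76.9 and 78.1 at CT12 (-0.64 ± 0.12, limma adjusted p = 0.00689). For all 3 genes every CT0 control liver lay above every CT12 control liver, replicate 1 at CT0 being the highest. Sdf2l1, a partner of the ER co-chaperones, was at 33.3, 18.1 and 13.5 RPKM at CT0 and at 8.00, 9.46 and 6.46 at CT12, again with no overlap (-1.30 ± 0.31, limma adjusted p = 0.0224).

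The number called was 6 without control CT0 replicate 1, and the genes were then Calr, Pdia4, Pdia6, Herpud1, Creld2 and Dnajb9. Over all 11439 genes tested, 827 were called in that fit, against 1239 with all libraries. Sdf2l1 lost its call (-0.94, limma adjusted p = 0.0666), as it did without control CT0 replicate 2 (adjusted p = 0.0522), control CT12 replicate 1 (0.061) or control CT12 replicate 3 (0.0845), in the same limma fit. Creld2 turned from -0.08 to 0.79 (limma adjusted p = 0.0398) and Dnajb9 (ERdj4, a co-chaperone of BiP) went from 0.43 to 0.83 (limma adjusted p = 0.0245). Hspa5 went from -0.24 ± 0.30 to 0.25 ± 0.10 and was called in neither fit (limma adjusted p = 0.658 and 0.154). The median over the 36 moved from -0.16 to 0.02.

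**Figure D3:**
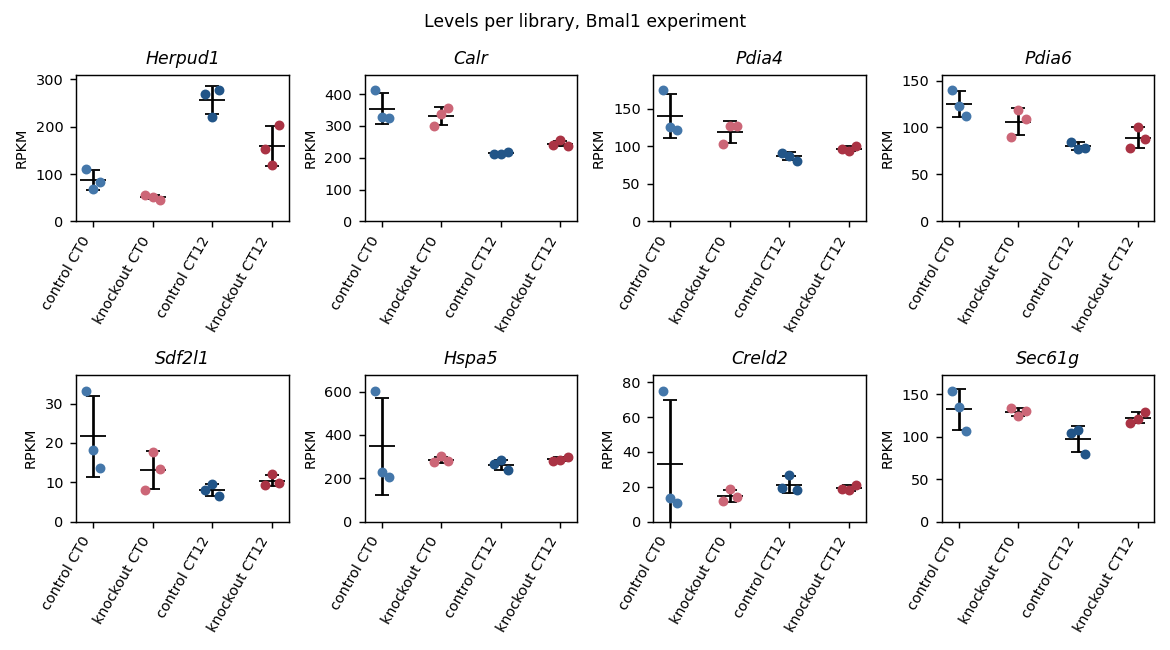
RPKM of 8 genes in each of the 12 Bmal1 libraries by group, with the mean (bar) and SD (whiskers, cut at 0), n = 3 per group. Herpud1 is higher at CT12 in both genotypes, Calr, Pdia4, Pdia6 and Sdf2l1 are lower at CT12 in control livers, and the high CT0 control point of Hspa5 and Creld2 is replicate 1.

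In Bmal1 knockout livers Herpud1 was the single gene of the 36 called between CT0 and CT12, against 1.9% of all genes tested. Calr was at 299.9, 336 and 355 RPKM at CT0 and at 240.1, 254 and 238 at CT12. Those times did not overlap, and the log2 difference was -0.43 ± 0.10 (limma adjusted p = 0.0526). It was called without control CT0 replicate 1 (SE 0.08, adjusted p = 0.0276) and without knockout CT0 replicate 1 (-0.50, adjusted p = 0.0493). Pdia4 (-0.29 ± 0.13, limma adjusted p = 0.266), Pdia6 (-0.25 ± 0.12, adjusted p = 0.3) and Sdf2l1 (-0.26 ± 0.31, adjusted p = 0.707) were not called, with levels of 103 to 128 against 94.4 to 101, 90.3 to 118 against 78.5 to 101, and 8.05 to 17.8 against 9.26 to 12.1.

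That these genes were called in control livers and not in knockout livers does not show that the genotypes differed. For the interaction of genotype and time, 2 of the 36 had an unadjusted p under 0.05 (the share of all genes was not counted). It was called for 0 of the 36 genes, against 1.31% of all genes tested. It was 0.28 ± 0.14 for Calr (limma adjusted p = 0.469), 0.39 ± 0.19 for Pdia4 (0.446), 0.39 ± 0.17 for Pdia6 (0.402) and 1.04 ± 0.44 for Sdf2l1 (0.375). Its sign was positive for 33 of the 36 genes, with a median of 0.22 against 0.07 over all genes. It was positive for 23 with trimmed-mean scaling (median 0.13), and for 20 without control CT0 replicate 1 (median 0.02). The share of all genes with a positive sign was not counted.

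Few of these genes were called between Bmal1 knockout and control livers, which does not show that the others were alike. At CT0, 0 of the 36 were called, against 1.62% of all genes tested. An unadjusted p under 0.05 was found for 4 (the share of all genes was not counted). At CT12, 1 was called, against 9.68% of all genes tested (6.46% higher and 3.22% lower, or 4.32% and 4.75% with trimmed-mean scaling). That gene was Herpud1, with the knockout values of 119 to 204 RPKM below the control values of 222 to 277, a log2 difference of -0.72 ± 0.20 (limma adjusted p = 0.041). At CT0 its knockout livers (46.2 to 54.8) also lay below all control livers (67.9 to 110.0), at -0.75 ± 0.20 (limma adjusted p = 0.0919). The call at CT12 was lost in 9 of 21 alternatives, with the difference between -0.91 and -0.53 and the adjusted p between 0.0141 and 0.146. Leaving out any 1 of 7 libraries lost it: control CT0 replicate 3 (adjusted p = 0.0568), control CT12 replicate 1 (0.11) or 3 (0.133), knockout CT0 replicate 2 (0.0535) or 3 (0.0524), and knockout CT12 replicate 1 (0.0915) or 2 (0.146).

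Dnajc3 (p58IPK), a co-chaperone that also inhibits PERK, likewise had knockout livers below all control livers at both times. It was at 64.5, 49.9 and 47.2 RPKM in control and 38.5, 39.0 and 41.0 in knockout livers at CT0 (-0.43 ± 0.11, limma adjusted p = 0.0752). At CT12 it was at 51.1, 46.0 and 49.6 in control and 38.9, 42.1 and 40.0 in knockout livers (-0.275 ± 0.11, limma adjusted p = 0.141). The CT12 difference was called without control CT0 replicate 1 (adjusted p = 0.0446), and the CT0 difference was then -0.295 (adjusted p = 0.147). Dnajc3 and Herpud1 were singled out after their values were seen, and the share of all genes that separate in this way was not counted.

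Trib3, a pseudokinase that restrains AKT and is induced by CHOP, was at 0.549, 1.45 and 1.93 RPKM in control and 0.298, 0.277 and 0.689 in knockout livers at CT0 (-0.92 ± 0.30, limma adjusted p = 0.18). Replicate 1 of the control lay inside the knockout range, and without it the difference was -1.27 ± 0.26 (limma adjusted p = 0.0433). At CT12 the log2 difference was -0.54 ± 0.30 (limma adjusted p = 0.303). Chac1, which degrades glutathione, was at 0.861 to 2.20 RPKM in all 12 libraries and was not called in any contrast.

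Hspa5 itself was at 275, 302 and 281 RPKM in knockout livers at CT0, and at 282, 287 and 298 in knockout and 265, 283 and 237 in control livers at CT12. Its genotype difference was -0.10 ± 0.30 at CT0 and 0.15 ± 0.30 at CT12 (limma adjusted p = 0.924 and 0.811). Without control CT0 replicate 1 the CT0 difference was 0.38 ± 0.10 (limma adjusted p = 0.102), with both remaining control livers below all 3 knockout livers. The sign of the BiP difference at CT0 therefore rested on 1 liver, and so did those of Manf (-0.09, then 0.46), Hyou1 (-0.17, then 0.26) and Creld2 (-0.58, then 0.29). Over the 36 genes, 10 differences were positive at CT0 with all libraries and 26 without that liver. The share of all genes with a positive difference was not counted. The median moved from -0.08 to 0.07 over the 36 and was 0.01 over all genes in both fits.

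**Figure D4:**
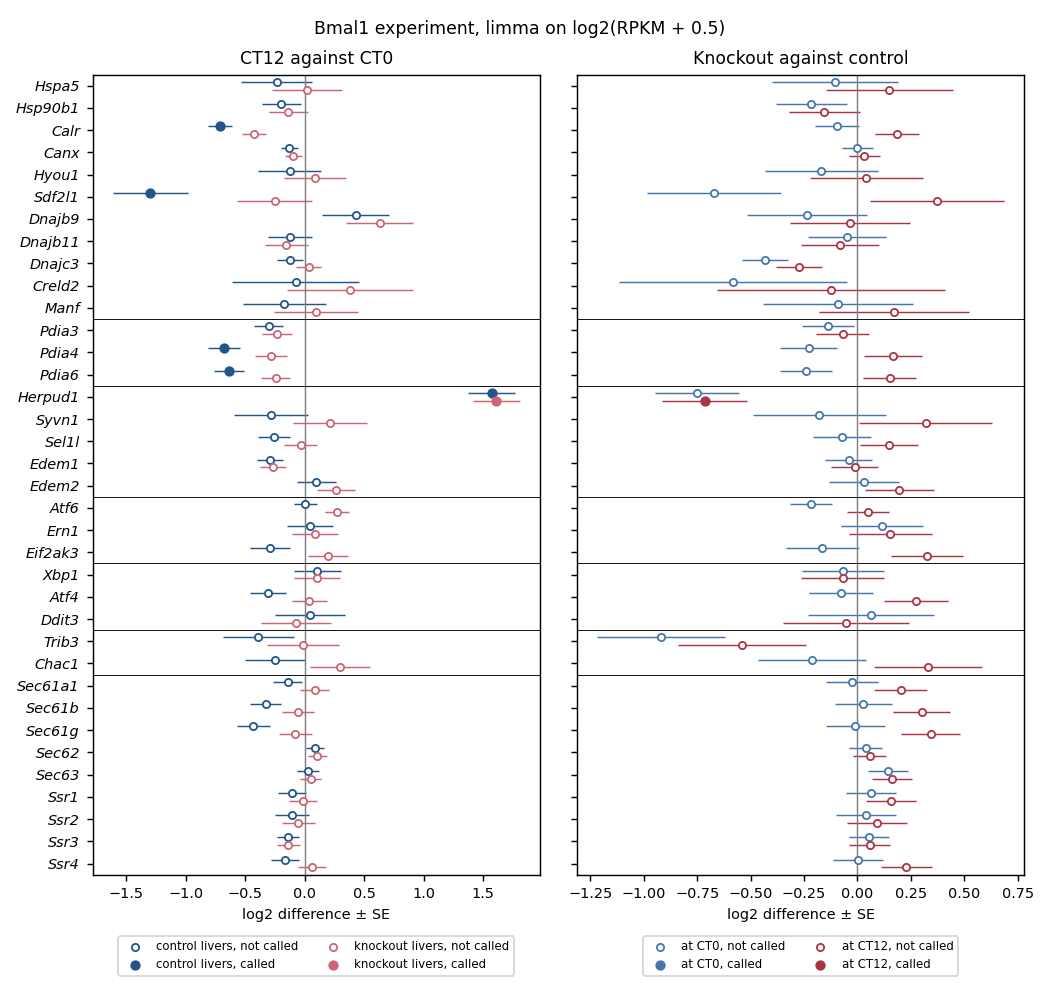
log2 differences ± SE from limma for the 36 genes in the Bmal1 experiment, left for CT12 against CT0 and right for knockout against control; filled points are called at an adjusted p under 0.05. Filled points are Herpud1, Calr, Sdf2l1, Pdia4 and Pdia6 on the left and Herpud1 at CT12 on the right.

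None of the sensors or transcription factors was called in any Bmal1 contrast. Atf6 was at 12.2 to 15.7 RPKM in control and 11.1 to 12.6 in knockout livers at CT0 (-0.22 ± 0.10, limma adjusted p = 0.355) and at 13.4 to 14.4 and 13.98 to 14.7 at CT12. Ern1 was at 8.19 to 10.2 and 7.31 to 13.0 at CT0, and at 8.58 to 10.2 and 8.53 to 13.0 at CT12. Eif2ak3 was at 4.33 to 5.97 and 4.08 to 4.67 at CT0, and at 3.02 to 5.28 and 4.75 to 5.53 at CT12 (0.33 ± 0.17, limma adjusted p = 0.265). The ranges of control and knockout livers overlapped for each sensor at both times.

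Xbp1, the factor spliced by IRE1, was at 62.1 to 100.5 RPKM in control and 59.2 to 99.0 in knockout livers at CT0. At CT12 it was at 72.9 to 93.9 and 76.9 to 81.0, with differences of -0.07 ± 0.19 at both times. These values do not separate its spliced and unspliced forms. Atf4 was at 32.9 to 46.7 and 31.3 to 38.8 at CT0 and at 28.4 to 30.8 and 30.4 to 42.6 at CT12, where the difference was 0.27 ± 0.15 (limma adjusted p = 0.3). Ddit3 was at 3.33 to 4.32 and 3.05 to 4.58 at CT0, and at 2.84 to 5.89 and 2.39 to 6.01 at CT12. ATF4 and cleaved ATF6 are controlled largely after transcription, which RNA levels do not measure.

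The translocon genes, which encode the SEC61 channel (Sec61a1, Sec61b, Sec61g), its partners Sec62 and Sec63 and the translocon-associated complex (Ssr1 to Ssr4), are the entry gate for secreted proteins. None of the 9 was called in any contrast, and their genotype differences were -0.03 to 0.14 at CT0 and 0.06 to 0.34 at CT12. Sec61g, a small subunit, had the largest time difference in control livers, at 155, 136 and 107 RPKM at CT0 and 105, 108 and 80.0 at CT12 (-0.43 ± 0.14, limma adjusted p = 0.0667), and was called without control CT0 replicate 3 (adjusted p = 0.0249). The CT0 and CT12 control livers overlapped. At CT12 its knockout livers, at 117, 121.7 and 129.8 RPKM, lay above all 3 control livers (0.34 ± 0.14, limma adjusted p = 0.153). Sec61b, the other small subunit, was at -0.33 ± 0.13 (limma adjusted p = 0.136), and was called without control CT12 replicate 1 (adjusted p = 0.0423), as was its genotype difference at CT12 (0.45, adjusted p = 0.0491). The other degradation genes, Sel1l, Edem1 and Edem2 (the last 2 release glycoproteins for degradation), were not called either, with control time differences of -0.26, -0.30 and 0.10.

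Other genes of the secretory pathway were taken from lists of 125 symbols, 113 of which could be tested. At CT12, 8 of the 113 were higher in Bmal1 knockout than in control livers, a share near the 6.46% of all genes. None was lower, against 3.22% of all genes. The largest were Ddit4 (REDD1, a stress-induced inhibitor of mTOR; 1.25 ± 0.33, limma adjusted p = 0.0326), Spcs2 (a signal peptidase subunit; 0.65 ± 0.16, adjusted p = 0.0256) and Tusc3 (an oligosaccharyltransferase subunit; 0.64 ± 0.12, adjusted p = 0.00453), and with trimmed-mean scaling Erp29, Sdf2 and Prkcsh lost their calls. Tusc3 kept its call when any library was left out. Ddit4 lost it without control CT12 replicate 1 or 2 or knockout CT12 replicate 1 or 3 (adjusted p = 0.0766 to 0.119), and Spcs2 without control CT12 replicate 2 or 3 or any 1 of the CT12 knockout livers (0.0585 to 0.103), in the same limma fit. At CT0, 1 was higher (Fkbp7, a prolyl isomerase of the ER; 0.70 ± 0.14, limma adjusted p = 0.0275). It lost that call without control CT0 replicate 1 (0.0715) or 3 (0.106) or any 1 of the CT0 knockout livers (0.0563 to 0.105).

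Between CT0 and CT12 in control livers 2 of the 113 rose and 6 fell, a share of 8 in 113 near the 10.8% of all genes. Cebpb (a stress-responsive factor; 1.03 ± 0.21, limma adjusted p = 0.0109) and Ppp1r15b (which dephosphorylates eIF2α; 0.46 ± 0.13, adjusted p = 0.0437) rose. Gdf15 (a secreted stress signal; -1.13 ± 0.29, limma adjusted p = 0.0283), Derl3 (a degradation channel protein; -0.92 ± 0.24, adjusted p = 0.0331) and Mcfd2 (a cargo receptor subunit; -0.58 ± 0.14, adjusted p = 0.0224) fell most. Without control CT0 replicate 1, Ppp1r15b, Derl3, Mcfd2, Ddost and Rpn2 lost their calls. Each of these also lost its call without other livers. Ppp1r15b lost it without any 1 of the control livers (limma adjusted p = 0.0703 to 0.13). Derl3 lost it without control CT0 replicate 2 or control CT12 replicate 1 or 3. Mcfd2 and Rpn2 lost theirs without control CT0 replicate 2 or control CT12 replicate 2 or 3. Ddost lost it without control CT12 replicate 1 or 3. With trimmed-mean scaling Ddost and Rpn2 were not called. Gdf15 lost its call without control CT0 replicate 2 or 3 or control CT12 replicate 1 or 3 (limma adjusted p = 0.0767 to 0.102), and Cebpb kept its call when any library was left out. None of the 113 was called between times in knockout livers or for the interaction.

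Markers of other cells moved with the same groups. The neutrophil sum (8 genes) was 32.6 to 116 RPKM in control and 106 to 230 in knockout livers at CT0, and 6.27 to 8.92 and 18.5 to 47.6 at CT12. The sum of 7 plasma and B cell markers was 22.2 to 23.7 RPKM in control livers at CT0 and 7.55 to 11.3 at CT12, and 18.1 to 30.3 and 14.3 to 20.2 in knockout livers. Between CT0 and CT12 in control livers the sums of several other cell types moved down as well, without overlap. Kupffer cells and macrophages had sums of 176 to 230 RPKM (CT0) against 108 to 166 (CT12). Endothelial cells had 86.5 to 107 against 58.0 to 68.0, and stellate cells and fibroblasts 123 to 167 against 90.2 to 105. These cells carry ER genes too, and the part of all these lists in the falls of Calr, Pdia4, Pdia6 and Sdf2l1 was not tested. Of 12 markers of pancreatic acinar cells, which are rich in ER, 7 to 9 were at 0 in every library of a group. Their sums were higher in knockout livers, without overlap: 7.76 to 11.9 RPKM in control and 15.9 to 20.1 in knockout livers at CT0, and 3.89 to 7.31 and 14.1 to 23.0 at CT12. Cela1 made up most of each sum. The sum of 8 hepatocyte markers was 40576 to 55405 in control and 29711 to 38503 in knockout livers, with Alb (albumin) making up much of it. Without Alb the sum of the other 7 was 16366 to 17536 in control and 13873 to 17261 in knockout livers at CT0, which overlap. At CT12 it was 13306 to 15147 and 15484 to 18117, where knockout was higher. In control livers this sum too was lower at CT12 than at CT0, without overlap. The erythroid sums of control livers overlapped between times, at 117 to 275 RPKM (CT0) and 82.5 to 145 (CT12). In bulk tissue fewer cells of a type and less RNA per cell cannot be told apart.

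In the Nr1d1 experiment 0 of the 36 genes were called in any of the 5 contrasts, in a fit with replicate number as a block. The share of all 12738 genes called was 0% for genotype at CT0, 0.0393% for genotype at CT12, 0.353% for time in control livers, 0.055% for time in livers labelled knockout and 0% for the interaction. The numbers of the 36 with an unadjusted p under 0.05 were 0, 2, 2, 6 and 1 in the same order. The share of all genes at that mark was not counted, so these numbers have no background. With 2 livers per group the values of each replicate are given below. Trimmed-mean scaling moved the median of all genes from 0.16 to 0.01 for time in livers labelled knockout.

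Herpud1 was higher at CT12 in all 4 pairs of livers. It was at 80.8 and 176 RPKM at CT0 and CT12 in control replicate 1, at 322 and 818 in control replicate 2, at 74.5 and 230.0 in replicate 1 labelled knockout, and at 379 and 591 in replicate 2 labelled knockout. The blocked differences were 1.23 ± 0.26 in control livers (limma adjusted p = 0.157) and 1.13 ± 0.26 in livers labelled knockout (adjusted p = 0.284). In the control livers of the Bmal1 experiment, which are other animals, it was 1.57. Between genotypes it went in opposite directions in the replicates at CT12 (0.38 and -0.47).

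Sdf2l1 in control livers was at 20.0 RPKM at CT0 and 8.34 at CT12 in replicate 1, and at 51.2 and 24.1 in replicate 2, a difference of -1.14 ± 0.59 (limma adjusted p = 0.679). Calr was at 308 and 286 in replicate 1 and at 1269 and 957 in replicate 2. Pdia4 was at 98.3 and 89.6, and at 317 and 173. Pdia6 was at 91.4 and 85.5, and at 335 and 314. Each of the 4 genes that fell in control livers of the Bmal1 experiment was thus lower at CT12 in both control replicates here, and none was called. Of the 36 genes, 11 were lower in both and 13 higher in both, against 15.5% and 36.9% of all genes (15 and 10, against 27.2% and 27.8%, with trimmed-mean scaling). Fitted on control livers alone, Herpud1 (adjusted p = 0.0162) and Sdf2l1 (0.0376) were called by limma. That fit held 2 livers per group and the replicate block, so its spread rests on few values. The share of all genes called in it is not given here.

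At CT12, 24 of the 36 genes were lower in the liver labelled Nr1d1 knockout than in its control in both replicates and 2 were higher in both, against 23.5% and 31.0% of all genes. With trimmed-mean scaling the numbers were 24 and 3, against 28.7% and 26.3%. The median log2 differences of the 36 were -0.15 in replicate 1 and -0.24 in replicate 2, and the genes share their libraries. The largest were in Dnajb9, at 19.6 RPKM in control and 10.6 in the labelled knockout in replicate 1 and at 48.8 and 21.9 in replicate 2 (-1.0 ± 0.27, limma adjusted p = 0.717). Creld2 was at 17.95 and 11.7, and at 62.1 and 28.8 (-0.85 ± 0.54, limma adjusted p = 1). Xbp1 was at 64.6 and 37.1, and at 292 and 166 (-0.80 ± 0.24, limma adjusted p = 0.824). Hspa5 was at 225 and 170.5, and at 525 and 352 (-0.49 ± 0.31). All 11 chaperones and co-chaperones had a negative difference, from -1.0 to -0.13, and translocon genes lay between -0.19 and 0.12.

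At CT0 the replicates went opposite ways. Of the 36, 28 had opposite signs in the replicates, 8 were lower in both in the labelled knockout and 0 were higher in both, against 46.9%, 33.2% and 17.8% of all genes. The median was -0.33 in replicate 1 and 0.38 in replicate 2, against -0.08 and -0.01 over all genes. Hspa5 was at 226 RPKM in control and 158 in the labelled knockout in replicate 1, and at 650.2 and 819 in replicate 2. Calr was at 308 and 252, and at 1269 and 2497. Sdf2l1 was at 20.0 and 8.60, and at 51.2 and 138. Creld2 was at 23.0 and 10.2, and at 86.9 and 162. All 4 genes were lower in the labelled knockout in replicate 1 and higher in replicate 2, so no direction by genotype can be read for them at CT0.

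The replicate 2 liver at CT0 labelled knockout was high for most chaperones, the isomerases and several translocon genes. Manf was at 789 RPKM against 393 in its control, Hyou1 at 308 against 182, Pdia6 at 606 against 335, Sec61b at 696 against 406, and Chac1 at 14.2 against 2.78. Genes that were lower included Sec62 (33.8 against 52.9), Sec63 (45.4 against 54.6), Ssr3 (61.3 against 69.8), Canx (216 against 239) and Ern1 (31.0 against 42.6). Dnajc3 (62.2 against 63.5) and Hsp90b1 (757 against 745) were nearly equal. Derl3, which is high in secretory cells and is also on the plasma cell list, was at 55.8 RPKM against 1.26, and the plasma and B cell sum was 71.4 against 8.52, of which Derl3 made the larger share. The neutrophil sum was 27.9 in that liver against 4.23 in its control, the erythroid sum 5736 against 1502, and the Kupffer cell and macrophage sum 825 against 454.5. Their part was not tested. Time differences in livers labelled knockout use this liver in replicate 2. The median over the 36 was 0.30 in replicate 1 and -0.66 in replicate 2, against 0.27 and 0.05 over all genes. It was 0.23 in the fit without that liver against -0.14 with it. With trimmed-mean scaling the medians were -0.05 and -0.69, against 0.0 and 0.02 over all genes. Then 20 of the 36 were lower in both replicates and 5 higher in both, against 29.3% and 30.8% of all genes.

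None of the sensors or transcription factors was called in this experiment. At CT0, in replicate 1 and then replicate 2, control and then labelled knockout, Atf6 was at 6.23 and 6.60, and at 18.6 and 15.5. Ern1 was at 6.08 and 5.52, and at 42.6 and 31.0. Eif2ak3 was at 2.97 and 2.71, and at 9.27 and 10.2. Of the sensors Ern1 alone was lower in the labelled knockout in both replicates. Xbp1 was at 48.6 and 40.0, and at 223 and 318. Atf4 was at 27.5 and 19.1, and at 77.1 and 82.0. Ddit3 was at 4.24 and 2.46, and at 17.8 and 20.3. All 3 factors were lower in the labelled knockout in replicate 1 and higher in replicate 2. At CT12, in the same order, Atf6 was at 9.15 and 9.94 and at 16.2 and 15.3, Ern1 at 6.36 and 6.38 and at 19.3 and 24.9, and Eif2ak3 at 3.52 and 2.82 and at 8.85 and 7.85. Atf4 was at 21.3 and 17.2 and at 65.7 and 73.0, and Ddit3 at 2.07 and 2.04 and at 12.7 and 10.5. At CT12 Eif2ak3, Xbp1 and Ddit3 were lower in the labelled knockout in both replicates, the Ddit3 values of replicate 1 being nearly equal. Ern1 was nearly equal in replicate 1 and higher in replicate 2.

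**Figure D5:**
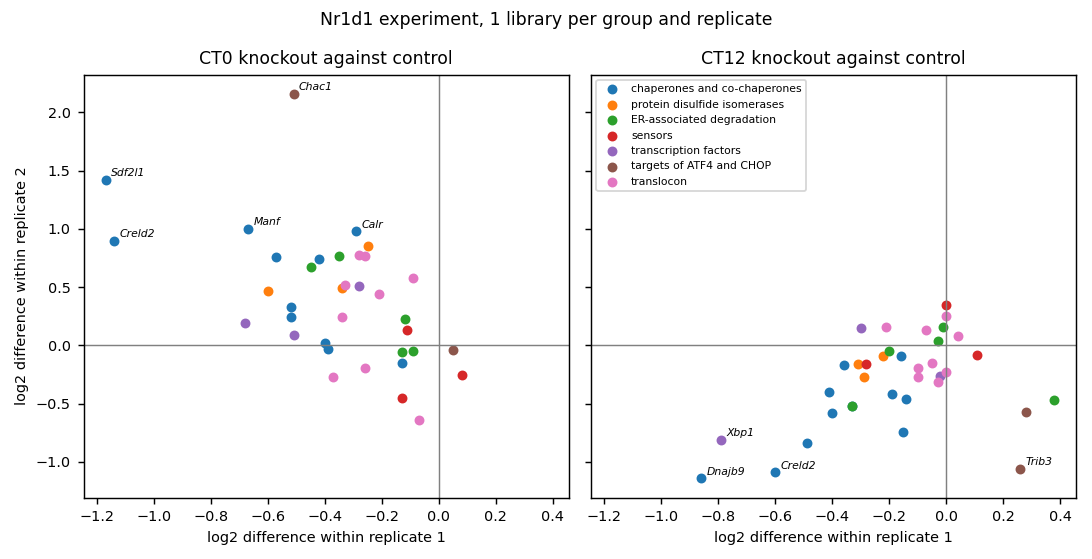
log2 difference of the liver labelled Nr1d1 knockout against its control within replicate 1 (x) and within replicate 2 (y), 1 point per gene coloured by role, at CT0 (left) and CT12 (right). At CT0 most genes are below 0 in replicate 1 and above 0 in replicate 2; at CT12, 24 of the 36 lie below 0 in both.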

How the data were processed

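RNA of 20 livers was sequenced in 2 experiments. Groups and replicate numbers come from the sample titles. RPKM per Ensembl transcript was deposited by the authors, 1 table per library; TopHat2, Bowtie and bedtools 2.19.1 with build mm9 are named in the submitters' processing notes (for Nr1d1 replicate 2, Bowtie is not listed). The annotation release, the strand setting and what depth RPKM was scaled to are not stated in the sources used. 4C libraries were not used.

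The tables were joined on 46585 transcripts. The best expressed transcript by mean log2 value stood for each symbol, and 19 of the 36 genes have 1 transcript. Genes with mean RPKM of at least 0.5 over an experiment's libraries were tested (11439 in the Bmal1 and 12738 in the Nr1d1 experiment) with limma 3.58.1 in R 4.3.3 (lmFit, contrasts.fit, eBayes with trend) on log2(RPKM + 0.5), two-sided. All p-values were adjusted by Benjamini-Hochberg over all tested genes, and genes were called at an adjusted p under 0.05. Because 0.5 is added, differences of low genes are understated. The spread was shared by all groups of an experiment. Libraries of the same number deviated together in the Nr1d1 experiment (correlation 0.82 to 0.88 across genes), where only replicate 2 is described as paired-end, so its fit has replicate number as a block. They did not in the Bmal1 experiment (-0.06 to 0.12). At most 0.014% of values were shared exactly between any pair of libraries.

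The fit was tested on simulated data for knockout against control at CT12. With the Bmal1 design it recovered 34% of true log2 differences of 0.5, 78% of 1 and 68% of -1, with 8 false calls. With the Nr1d1 design it recovered 0%, 4% and 8% of these and 58% of differences of 2, with 0 false calls. A gene not called in the Nr1d1 experiment may therefore still differ. Alternatives were the pseudocount, the filter, trimmed-mean scaling, quantile normalization, the sum over transcripts, the compared groups alone, the block, and leaving out each library. Recovered reads are whole multiples within 0.05.

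The 36 genes and the lists of pathway genes and markers were chosen with earlier results of these data known. Every gene called in a contrast (up to 4 per direction), Hspa5, the sensors and the transcription factors were named with values, and of other pathway genes the 3 largest per direction.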

Additional observations from a re-analysis of the deposited data

How the results depend on the processing

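Of 188 alternative counts of called genes among the 36, 173 were within 1.5 times the reported count. The others were these. For time in Bmal1 knockout livers, 2 were called with a minimum mean of 2 RPKM. For Bmal1 knockout against control at CT12, 0 were called with no filter on low values and 0 when the fit held just those groups. For time in Nr1d1 control livers, 2 were called in a fit of those groups alone. Leaving out 1 library gave 0 to 1 for Bmal1 knockout against control at CT0 (1 without control CT0 replicate 1), 1 to 2 for time in Bmal1 knockout livers (2 without control CT0 replicate 1 or knockout CT0 replicate 1), 0 to 2 for Bmal1 knockout against control at CT12, and 0 to 1 for time in livers labelled Nr1d1 knockout (1, Sdf2l1, without knockout CT0 replicate 1). Where leaving out a library left a group with 1 sample, it was assumed to vary like the other groups.

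Creld2 reversed between times in control livers, to 0.79 without control CT0 replicate 1, and ranged from -0.59 to 0.79 when each library was left out. The 7 differences called were refitted in 147 alternatives, of which 147 kept the direction and 134 the call. The calls lost were those of Herpud1 for genotype at CT12 (adjusted p up to 0.146) and Sdf2l1 (up to 0.0845). Calr, Pdia4 and Pdia6 and Herpud1 for time in control livers, and Herpud1 for time in knockout livers, kept theirs in all 21 alternatives each. Differences that were called in neither fit changed sign in 413 of 7113 alternatives for single genes. The causes of these changes were not tested.

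With a replicate block in the Bmal1 experiment the counts were 0, 0, 1, 5 and 1 for the interaction, genotype at CT0, genotype at CT12, time in control and time in knockout livers, as without it. With no replicate block in the Nr1d1 experiment 0 genes were called in every contrast. Few reads limit Trib3, Ddit3 and Chac1, and 2 livers per group limit the Nr1d1 experiment.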
